A study of Caenorhabditis elegans with 2 samples.

Results

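The clec genes of Caenorhabditis elegans encode proteins named for the C-type lectin-like domain, and they were described here by where SMA-9 bound in L2 larvae. Members were the protein-coding genes whose symbol in the Ensembl annotation is clec- and a number. There were 240 of them among 19973 protein-coding genes of the 6 nuclear chromosomes. A member was called bound if the summit of a peak lay within 1000 bp of the 5' end of any of its annotated transcripts. The peaks were the 7065 of the authors' list thresholded on the irreproducible discovery rate (IDR), a measure of how reproducible peak ranks are. Not every peak was called in both replicates, as calls of both contained 6727 of the 7065 summits. By this rule 21 clec genes were bound. The 240 genes carry 237 symbols, because clec-15, clec-209 and clec-249 each name 2 genes. RefSeq gives a product containing "C-type lectin" for 207 members, and 20 of these were bound. The other 33 have products such as PAN-3 domain-containing protein (14 genes, 1 of them, clec-115, bound) or VWFA domain-containing protein (8 genes, 0 bound), and the domains themselves were not examined.

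The binding data are chromatin immunoprecipitation followed by sequencing (ChIP-seq) with an antibody against GFP. The animals were whole hermaphrodites of strain LW1254, which carries the integrated array jjIs1254 with sma-9C2::gfp and an unc-119 rescue gene in the unc-119(ed4) background. They were harvested 22 h after release from L1 starvation, and there were 2 biological replicates of 1 group. The labels note a GFP-FLAG tag at the C terminus of SMA-9, do not name the promoter of the transgene, and describe no untagged animals among these samples. They point to a possible control experiment, which was not analysed here. Peak lists hold no read counts, so the depth of the libraries is unknown. In whole larvae, strong binding in a few cells and weak binding in many cannot be told apart.

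C-type lectin domains were first known as folds that bind sugars in the presence of calcium, although many members of this family in nematodes lack a known ligand. In C. elegans many clec genes are expressed in the intestine, their products are often secreted, and subsets are induced by bacterial infection. SMA-9 is a large zinc-finger protein of the Schnurri family that works with the Smad proteins of the DBL-1 pathway, a BMP-like pathway that sets body size and also affects defence against bacteria.

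Sequences at several summits are shown first because a short motif recurs in them. They are examples that all hold the motif, and no summit window without it is printed. Each run covers up to 50 bp on either side of the summit, on the strand of the clec gene, 5' to 3', and was read from the RefSeq genome of build WBcel235 (ce11). Capitals mark TGATAA or its reverse complement TTATCA, the core letters recognised by GATA factors, which include the intestinal regulator ELT-2. The runs of clec-218, clec-186 and clec-76 stop at the base before the 5' end of the gene, and that of clec-76 therefore ends before its summit, which lies 14 bp downstream of the 5' end. The first 4 belong to genes of 1 tandem group on chromosome IV, at chrIV:3922042-3922142, chrIV:3944633-3944733, chrIV:3965210-3965245 and chrIV:3988776-3988876, all on the forward strand:
clec-67: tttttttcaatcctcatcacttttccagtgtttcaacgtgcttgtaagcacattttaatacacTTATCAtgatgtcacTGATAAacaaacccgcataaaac
clec-72: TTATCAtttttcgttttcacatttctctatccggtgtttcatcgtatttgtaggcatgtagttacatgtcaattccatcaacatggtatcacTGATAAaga
clec-76: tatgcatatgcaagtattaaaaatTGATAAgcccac
clec-78: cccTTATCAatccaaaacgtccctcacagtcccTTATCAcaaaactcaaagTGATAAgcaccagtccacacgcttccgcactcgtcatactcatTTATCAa
The next 3 come from related genes on chromosome V, clec-48 at chrV:18157835-18157935 on the forward strand, and clec-49 at chrV:19751281-19751381 and clec-50 at chrV:19755428-19755528 on the reverse strand:
clec-48: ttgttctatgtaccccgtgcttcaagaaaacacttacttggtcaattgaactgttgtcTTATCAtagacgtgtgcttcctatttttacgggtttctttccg
clec-49: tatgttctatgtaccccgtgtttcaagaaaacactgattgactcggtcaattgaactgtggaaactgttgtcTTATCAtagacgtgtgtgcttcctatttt
clec-50: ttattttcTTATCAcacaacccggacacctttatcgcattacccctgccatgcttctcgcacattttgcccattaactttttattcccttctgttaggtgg
The last 3 are examples of summits of other members close to their own 5' ends, clec-186 at chrIV:12866009-12866108, clec-218 at chrV:8307860-8307941 and clec-265 at chrX:3031662-3031762, on the forward strand:
clec-186: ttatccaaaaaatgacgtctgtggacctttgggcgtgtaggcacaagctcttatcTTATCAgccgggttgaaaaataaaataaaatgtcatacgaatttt
clec-218: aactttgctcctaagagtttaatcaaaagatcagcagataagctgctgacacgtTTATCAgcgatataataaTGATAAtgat
clec-265: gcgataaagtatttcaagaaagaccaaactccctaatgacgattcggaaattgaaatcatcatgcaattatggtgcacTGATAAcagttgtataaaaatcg

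The motif TGATAA, on either strand, lay in 14 of the 22 windows of 101 bp at summits of bound clec genes, which is 63.6% (95% Wilson interval 43.0 to 80.3%). The interval treats the windows as independent, although 2 belong to clec-178 and those of clec-48 and clec-49 were 70.9% identical. It lay in 20.3% of the windows at all 7065 IDR summits and in 19.8% of those within 1000 bp of any gene. The window of clec-78 held 4 matches, those of clec-67, clec-72 and clec-218 held 2 each, and the remaining 10 held 1 each. Summit windows of the bound clec genes had a median GC content of 38.6%, against 43.6% for all IDR summits, and the part of base composition in the motif share was not tested. The UDP-glucuronosyltransferase (ugt) genes, whose products conjugate small molecules, had the motif in 18 of 31 summit windows (58.1%), and 10 defence effector families, such as lysozymes and galectins, had it in 16 of 39 (41%). It was found in 5 of 24 windows of cytochrome P450 (cyp) genes and in 3 of 19 of cuticle collagen (col) genes. The plot of motif shares shows these values side by side.

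**Figure D1:**
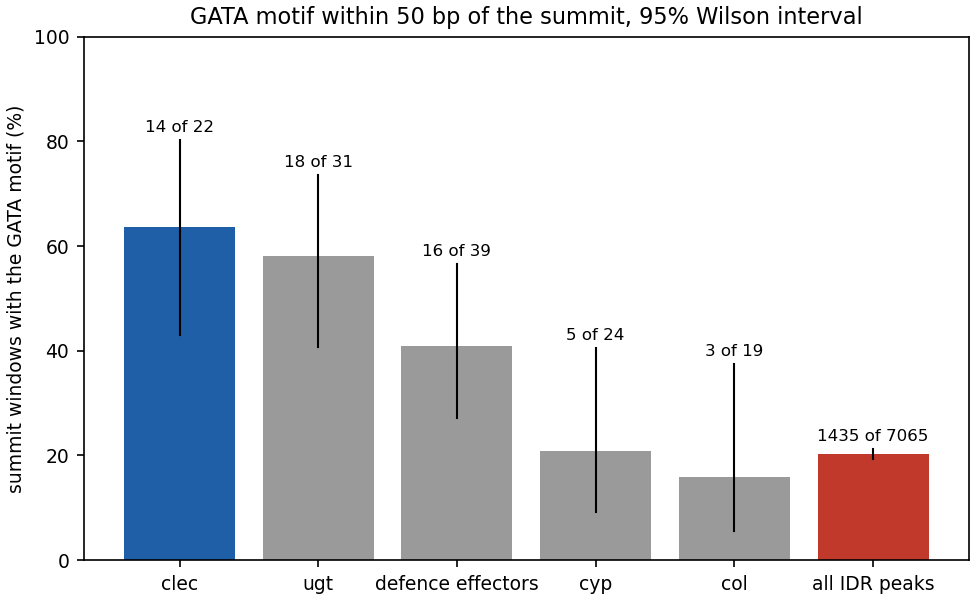
Share of 101 bp summit windows that hold the GATA motif on either strand (vertical axis, percent), for bound clec genes, 4 other gene groups and all IDR peaks, with 95% Wilson intervals over windows as lines. The clec bar stands at 63.6% and the bar for all IDR peaks at 20.3%.

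The motif was about as frequent at clec summits taken from either replicate alone. Among the 7065 strongest nuclear calls of replicate 1 it lay in 12 of 21 clec windows (57.1%), against 18.2% of all such windows. Among those of replicate 2 it lay in 18 of 26 clec windows (69.2%), against 21.3% of all. At summits of the pooled list that did not pass IDR it lay in 32 of 76 clec windows (42.1%), against 12.7% of all 22935 windows. The promoters of the family also hold it often, bound or not. In the stretch from 250 bp upstream to 50 bp downstream of the outermost 5' end it was present in 15 of 21 bound clec genes (71.4%), in 114 of 219 clec genes that were not bound (52.1%) and in 30.2% of all protein-coding genes. Over all 240 clec genes the share was 53.8%, and it was 68.7% for ugt, 44.8% for the defence effector families, 43.2% for cyp and 29.5% for col. Of the 129 clec promoters with these letters, 114 belonged to genes that were not bound, beside 219 of all 240 clec promoters.

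The 4 other motifs searched on both strands were rarer or no more frequent. None of the 5 motifs contains another. GAGAGA lay in 5 of 22 clec summit windows (22.7%), against 25.6% of all IDR windows. CACGTG, the letters bound by HLH-30 and other bHLH factors, lay in 0 of 22 clec windows, which allows a share of up to 13.6%, against 7.36% of all IDR windows. TGACGTCA, the letters bound by CREB and ATF factors, and GTCTAGAC, a palindrome of the Smad-binding letters, were also in 0 of 22, against 1.57% and 0.113% of all IDR windows. These letters may still lie outside the windows.

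SMA-9 summits lay near a smaller share of clec genes than of all genes. The 21 bound members are 8.75% of 240 (95% Wilson interval 5.79 to 13.0%), against 20.2% of all protein-coding genes, 4036 of 19973. Genes with more annotated 5' ends have more chances to be called, and clec genes have 1.11 on average, against 1.49 for all genes. Among genes with 1 annotated 5' end, 19 of 217 clec genes (8.76%) were bound, against 16.3% of all such genes. Among genes with more than 1, the values were 2 of 23 (8.70%) and 30.4%. No set test was run over the members, and the intervals cover counting error over genes, which are not independent replicates.

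Calls of the lists before IDR, strong and weak together, were also less frequent near the family. The authors' lists before IDR hold 30000 calls each, background included. In the pooled list 74 clec genes (30.8%) had a summit within 1000 bp, against 47.1% of all genes. In replicate 1 there were 89 (37.1%, against 48.0% of all genes), and in replicate 2 there were 76 (31.7%, against 48.6%). Both replicates had a summit in the window at 49 clec genes (20.4%), against 37.8% of all genes. No list had a summit there for 119 clec genes (49.6%), against 39.7% of all genes. The counts per list include genes bound by the IDR rule. Of the clec genes counted, 53 in the pooled list, 69 in replicate 1 and 56 in replicate 2 were not bound by that rule. The matching counts over all genes were not made, so whether weaker calls alone were less frequent is not shown.

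**Figure D2:**
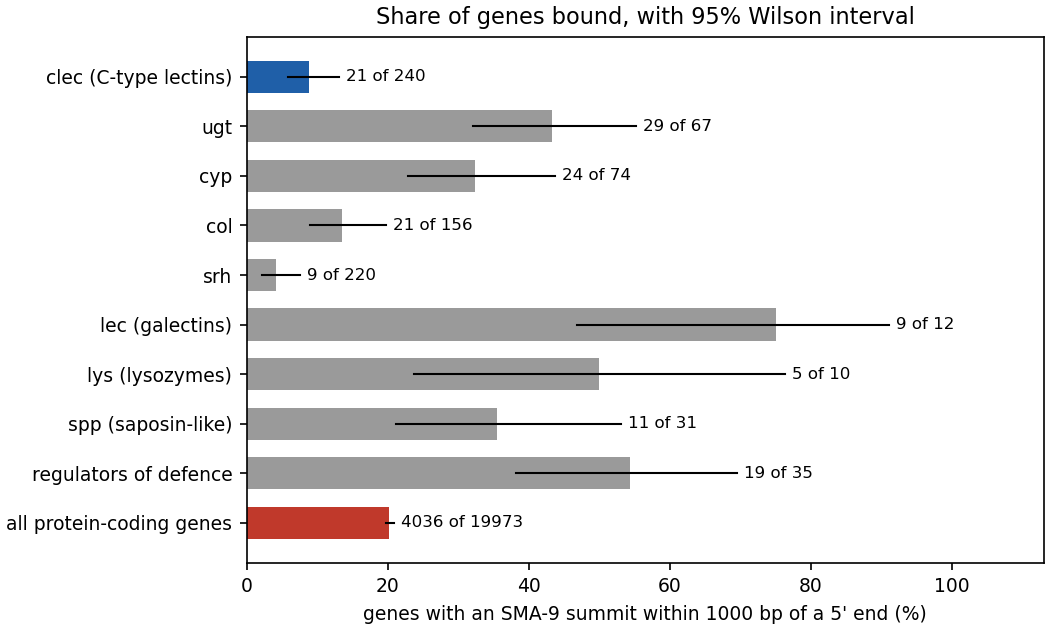
Percent of genes with an IDR summit within 1000 bp of a 5' end (horizontal axis), by gene family or list, with the number bound and 95% Wilson intervals over genes as lines. The clec bar stands at 8.75%, the srh chemoreceptors at 4.09% and all protein-coding genes at 20.2%.

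Summits were also farther from clec genes beyond the window. The median distance from a 5' end to the nearest IDR summit was 13718 bp for clec genes (quartiles 5581 and 28726 bp), against 6165 bp for all genes (1609 and 16067 bp). More than 10000 bp separated 151 clec genes (62.9%) from any summit, against 37.3% of all genes. Repeated sequence around the 5' ends was also measured, and its part in the clec values was not tested. The measure was the share of 31-base words around a 5' end that occur once in the genome, taking the highest value over a gene's 5' ends. Its median was 98.4% for clec genes and 100% for all genes, and its 10th percentile was 81.7% and 84.0%. It was under 50% at 7 clec genes (2.92%), against 2.59% of all genes. Those 7 are clec-250 and the 6 genes that share a symbol, whose coding sequences are identical within each pair. None of the 7 was bound, and how the authors placed reads with several matches is not given in the sources used here.

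**Figure D3:**
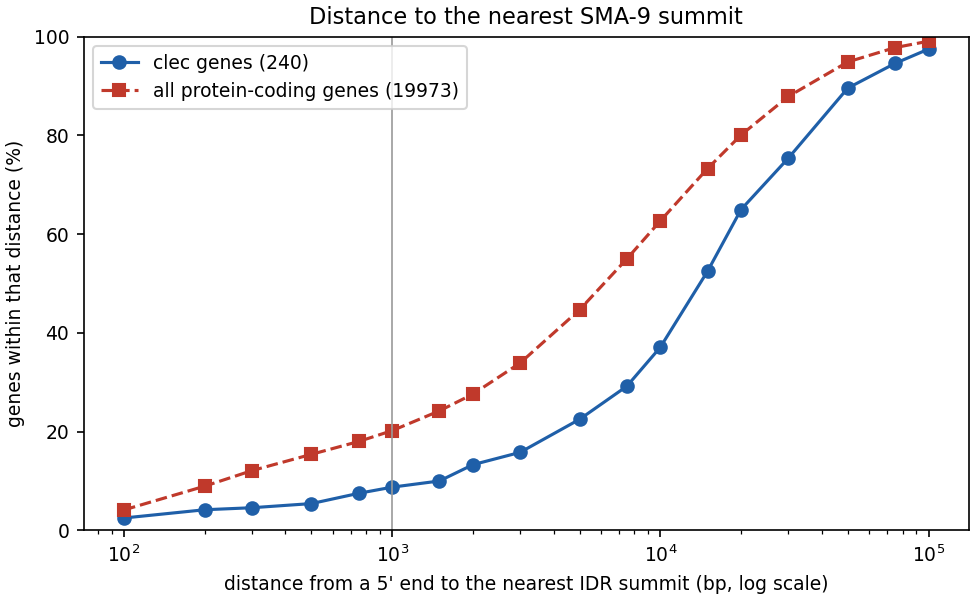
Percent of genes (vertical axis) whose nearest IDR summit lies within the distance on the horizontal axis (bp, log scale), for the 240 clec genes (circles) and all 19973 protein-coding genes (squares), with a grey line at the 1000 bp window. The clec curve runs below the other at each distance plotted, at 37.1% against 62.7% by 10000 bp.

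By chromosome, bound members were most numerous on IV and V and absent on II. Chromosome IV had 9 of 53 clec genes bound (17%), against 18.1% of all its genes. Chromosome V, with the most members, had 8 of 86 (9.30%), against 18.2%. On chromosome II 0 of 48 were bound, which allows a share of up to 6.25%, against 19.7% of all genes there. Chromosome I had 2 of 36 (5.56%), against 19% of all its genes, and chromosome III had 1 of 14 (7.14%), against 22.5%. The X chromosome had 1 of 3, against 26% of all its genes. On chromosome II 13 of the 48 did have a call of the pooled list in the window. The chromosomes' values are counts of a few genes each, and no test between them was run.

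Clec genes lie mostly away from the middle of the chromosomes. The central 33.3% of the length of an autosome holds 15.2% of autosomal clec genes and 38.1% of all autosomal protein-coding genes. In that central part 3 of 36 clec genes were bound (8.33%), against 26.1% of all genes. In the outer parts the values were 17 of 201 (8.46%) and 15.1%. The lower share of clec genes was therefore seen in both parts, by counts alone.

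Many members stand in tandem groups, and 1 group on chromosome IV held 4 of the 21 bound genes. Groups were formed of clec genes with gaps of at most 50000 bp between them. In groups of 10 or more, 5 of 25 members were bound (20%, 95% Wilson interval 8.86 to 39.1%). In groups of 3 to 9 it was 7 of 100, in pairs 4 of 48, and among members with no clec neighbour at that distance 5 of 67. The groups of 10 or more are only the chromosome IV group, with 4 of 12 members bound, and a chromosome V group, with 1 of 13. Their joint share of 20% is close to the 20.2% of all protein-coding genes, but it averages these unlike groups. The shares of the other classes, 7 to 8.33%, are below 20.2%. The intervals of these 4 shares overlap.

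The group on chromosome IV runs from clec-67 to clec-78, at 3922165 to 4014235, and has 12 members over 92071 bp. It held 4 IDR peaks within its span and 1000 bp beyond, and each lay at the 5' end of a different clec gene. The summit for clec-67 (WBGene00018971) lay 73 bp upstream. Its peak had a pooled signal of 95, with 46.5 in replicate 1 (rank 5178) and 49.2 in replicate 2 (rank 3815). Signal here is the value the authors' peak caller gave, compared only within a list, and rank 1 is the strongest of the 30000 calls of a list. For clec-72 (WBGene00021583) the summit lay 133 bp upstream and the pooled signal was 110, with 50.6 in replicate 1 (rank 4646) and 56.2 in replicate 2 (rank 3171). For clec-76 (WBGene00021587) it lay 14 bp downstream, in the non-coding part of an exon, and the pooled signal was 112, with 66.5 in replicate 1 (rank 3210) and 42.5 in replicate 2 (rank 4620). For clec-78 (WBGene00018547), whose coding sequence of 10542 bp is the longest of the family, it lay 276 bp upstream and the pooled signal was 141, with 73.7 in replicate 1 (rank 2782) and 64.9 in replicate 2 (rank 2538).

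The peaks of the group thus stood near the middle of the IDR list and were called in both replicates. The 8 members between them, clec-68, clec-70, clec-71, clec-174, clec-73, clec-74, clec-75 and clec-79, had no call of the pooled list within 1000 bp. Only clec-71 of these had a call in a replicate, ranked 22890 in replicate 1. The group also spans 10 other protein-coding genes, 0 of which were bound. The summit windows of clec-67 and clec-72, printed above, were identical at 56.5% of aligned columns, and the median over all 231 pairs of clec windows was 48.3%.

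**Figure D4:**
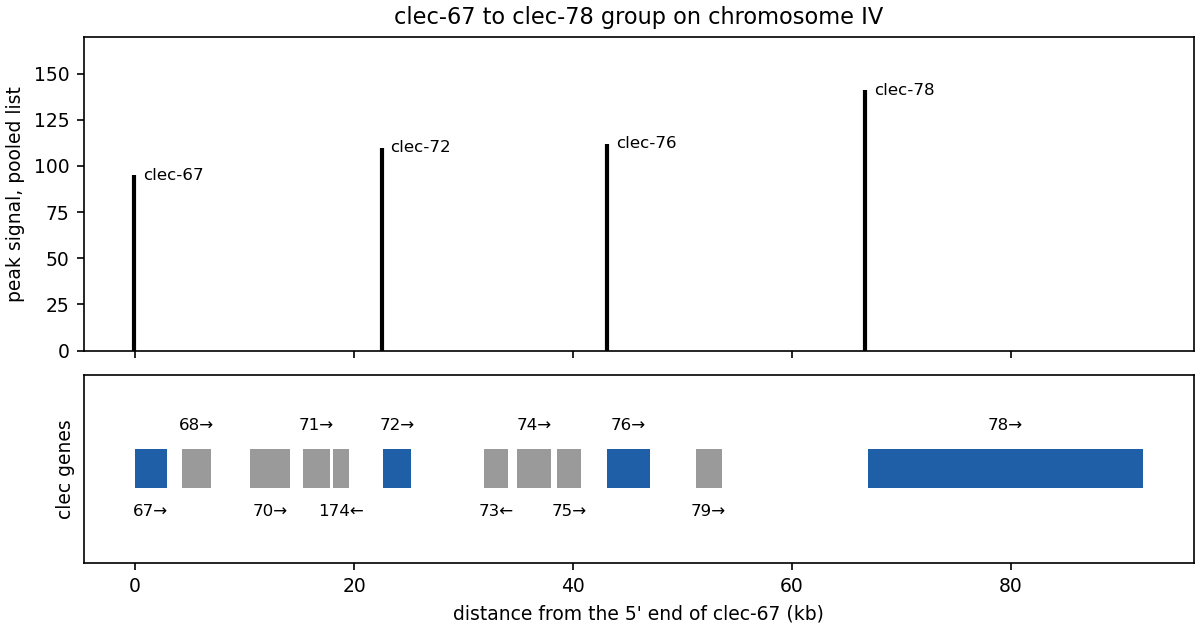
The clec-67 to clec-78 group on chromosome IV, with distance from the 5' end of clec-67 in kb (horizontal axis). Upper panel, vertical lines mark the 4 IDR summits with their pooled signal, from 95 at clec-67 to 141 at clec-78. Lower panel, bars are clec genes labelled by number with an arrow for direction, blue where bound and grey where not.

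On chromosome V the related genes clec-48, clec-49 and clec-50 were bound close upstream. The pair clec-49 and clec-39 is known for a part in the response to the bacterium Serratia marcescens. The summit of the clec-50 peak (V 19755343 to 19755612) lay 110 bp upstream at a pooled signal of 130, with 81.7 in replicate 1 (rank 2422) and 48.6 in replicate 2 (rank 3870). The summit of the clec-49 peak (V 19751196 to 19751465) lay 105 bp upstream at a pooled signal of 70.8, with 43.2 in replicate 1 (rank 5670) and 25.6 in replicate 2 (rank 8363). The summit of the clec-48 peak (V 18157750 to 18158019), more than 1 Mb away, lay 141 bp upstream at a pooled signal of 70.2, with 28.7 in replicate 1 (rank 9151) and 37.5 in replicate 2 (rank 5384). Of the 3, clec-50 thus had the strongest peak in each list. The summit windows of clec-48 and clec-49 were identical at 83 of 117 aligned columns (70.9%), the highest value among the pairs, ahead of 56.6%. Their coding sequences are 92.5% identical, while those of clec-49 and clec-50 are 83.9% identical. Reads could have been shared between such copies, so the separate signals of clec-48 and clec-49 are uncertain.

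The largest group, on chromosome V at 16839121 to 16869840, had 13 members and 1 bound gene, clec-40. Its summit lay in an intron of clec-40, 580 bp downstream of the 5' end, at a pooled signal of 110, with 59.4 in replicate 1 (rank 3745) and 50.4 in replicate 2 (rank 3697). The 12 other members, among them clec-25 and clec-37, were not bound. The clec-60 and clec-61 genes, known for their induction by Staphylococcus aureus, lie in a group of 5 on chromosome II without an IDR peak in its span or 1000 bp beyond. A group of 7 on chromosome I, from clec-93 to clec-99, and a group of 7 on chromosome V, from clec-250 to clec-257, also had 0 IDR peaks.

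At other members the peak, whose coordinates follow the gene's name, called no other gene. The summit for clec-265 (X 3031657 to 3031771) lay 71 bp upstream at a pooled signal of 158, with 81.7 in replicate 1 (rank 2423) and 81.2 in replicate 2 (rank 1771). For clec-218 (V 8307841 to 8307932) it lay 32 bp upstream at a pooled signal of 151, with 105 in replicate 1 (rank 1624) and 46.5 in replicate 2 (rank 4132). For clec-186 (IV 12866022 to 12866098) it lay 50 bp upstream at a pooled signal of 117, with 58.0 in replicate 1 (rank 3866). Replicate 2 had no call at the clec-186 summit and no summit elsewhere in its window. Of these, clec-265 ranked higher in replicate 2 and clec-218 in replicate 1. For clec-51 (IV 8163730 to 8163999) it lay 65 bp upstream at a pooled signal of 80.3, with 36.4 in replicate 1 (rank 6966) and 48.4 in replicate 2 (rank 3898). The peaks of clec-170 (523 bp upstream, signal 81.2) and clec-149 (529 bp upstream, signal 69.8) were more distant, and that of clec-149 ranked 5834 in replicate 1 but 14505 in replicate 2. For clec-221 the summit lay in an intron 358 bp downstream, at a pooled signal of 74.8, with 59.7 in replicate 1 (rank 3722). Replicate 2 had no call at the clec-221 summit, but had one elsewhere in its window (signal 19.5, rank 11295).

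At 6 bound members another gene shared a summit, and 5 of the 22 peaks lay nearer to that gene's 5' end. The strongest peak of all bound members, at clec-241 (V 17014175 to 17014305, signal 200, ranks 1788 and 1260), lay 916 bp upstream of clec-241 and 160 bp upstream of clc-13. The peak of clec-85 (IV 2855470 to 2855603, signal 190, ranks 1725 and 1612) lay 96 bp past the 3' end of clec-85 and 43 bp past that of Y54G2A.16, between the ends of these convergent genes. It was called because clec-85, a known target of the p38 MAP kinase PMK-1, has an annotated 5' end inside the gene. The peak of clec-53 (signal 98.2, ranks 9509 and 2475) lay in an intron of uba-5, and the peak of clec-115 (signal 67.9, ranks 9301 and 4914) lay 982 bp upstream of clec-115 and 794 bp upstream of C49A1.10.

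The small gene clec-178 lies on the opposite strand inside skn-1, which encodes a transcription factor of oxidative stress and detoxification. It had 2 IDR peaks in its window. The summit 683 bp upstream of clec-178 (signal 77.9) lay 37 bp upstream of a 5' end of skn-1, and the summit 501 bp downstream (signal 86.3) lay in introns of both genes. At clec-57 (V 14468737 to 14468867, signal 167, ranks 1384 and 3585) the summit lay 451 bp upstream of clec-57 and 534 bp upstream of the chemoreceptor gene srz-97. When each summit called only the gene with the nearest 5' end, 17 clec genes (7.08%) were bound, against 16.6% of all genes.

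The bound members' peaks were of middling strength. Their pooled signals ran from 67.9 to 200, with a median of 104, against 62.0 to 2844 with a median of 109 for all IDR peaks. Among the 1000 strongest IDR peaks were 0 of the 22, against 14.8% of the IDR peaks near any bound gene. The limit for 0 used here allows a share of up to 13.6%. That limit is close to 14.8% and is not a Wilson interval, so a lower clec share among the strongest peaks is not shown. Replicate 1 had a call at all 22 summits and replicate 2 at 20. A call among the first 7065 of both replicates contained 14 of the 22 summits (63.6%), against 71.7% of all IDR summits. Ranks of replicate 2 also count 17 mitochondrial calls. In replicate 1 the signals at the summits ran from 27.8 to 116, and in replicate 2 from 15.7 to 100. Among the 20 peaks called in both replicates, the ranks differed most at clec-149, which ranked higher in replicate 1, and next at clec-53, which ranked higher in replicate 2.

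**Figure D5:**
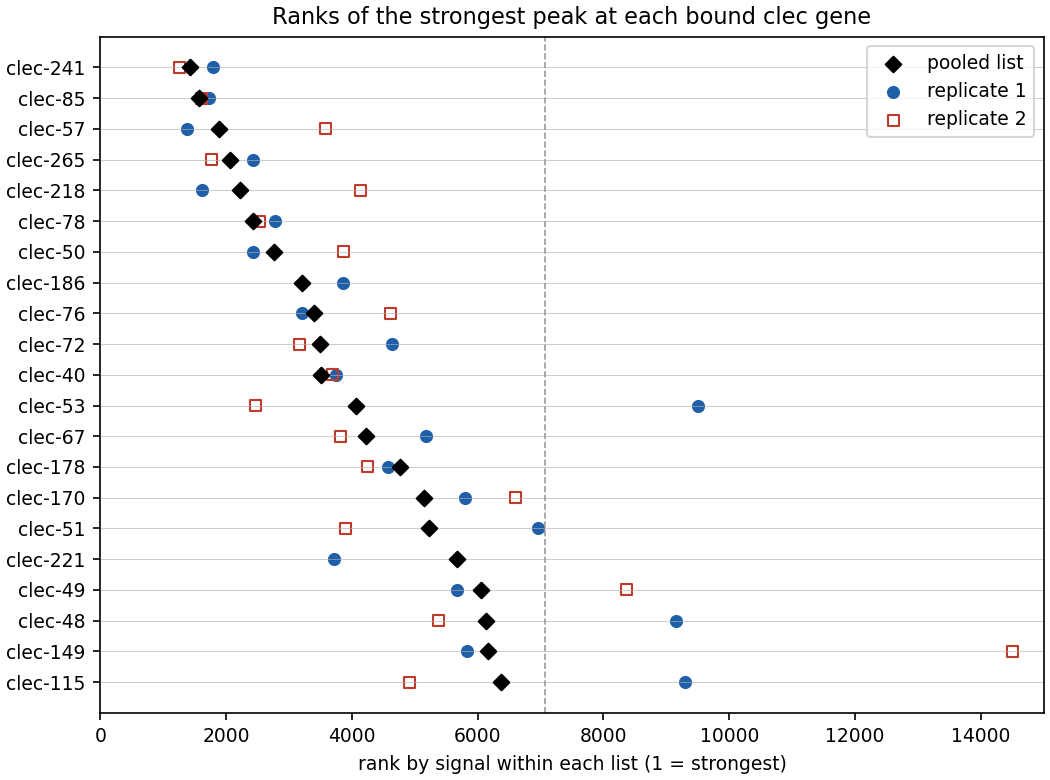
Rank by signal (horizontal axis, 1 is strongest) of the strongest peak at each of the 21 bound clec genes, in the pooled list (diamonds), replicate 1 (circles) and replicate 2 (open squares), with a dashed line at rank 7065. No square is drawn for clec-186 and clec-221, which had no replicate 2 call at the summit, and the pooled ranks run from 1435 to 6371.

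Measured from the nearest summit, the distance to the 5' end had a median of 276 bp in bound clec genes and 236 bp in all bound genes. It was at most 150 bp in 10 of 21 bound clec genes (47.6%), against 33.1% of all bound genes, and over 500 bp in 8 (38.1%), against 23.7%. The nearest summit was upstream in 16 of 21 (76.2%), against 84.3% of all bound genes. The bound members nearest the edge of the window were clec-115 at 982 bp, clec-241 at 916 bp and clec-85 at 770 bp. The members just outside it were clec-196 at 1031 bp, clec-1 at 1280 bp and clec-140 at 1330 bp. A summit within 2000 bp was also found at clec-264, clec-233, clec-181, clec-144, clec-52, clec-91, clec-158 and clec-182, so that 11 members lay between the 2 limits.

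A set of 22 clec genes is given here whatever their values, and 4 of them were bound, namely clec-85, clec-78, clec-67 and clec-49. Of all clec genes 8.75% were bound, and of all protein-coding genes 20.2%. For 2 more a summit lay between 1000 and 2000 bp, clec-1 (1280 bp downstream) and clec-52 (1730 bp upstream). The nearest summit was 9512 bp from clec-38, a gene that restrains axon outgrowth, and 18992 and 10329 bp from clec-60 and clec-61. Both replicates had a call in the window at clec-1, clec-87, clec-65, clec-41 and clec-86, and the pooled signals there ran from 18.0 at clec-87 to 49 at clec-41. The pooled list had a call of signal 16.9 to 24.8 at clec-60, clec-47, clec-38, clec-42 and clec-52. It had none at clec-17, clec-61, clec-4, clec-70, clec-71, clec-7, clec-39 and clec-266.

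Among members that were not bound, the strongest call of the pooled list was at clec-9, of signal 58.9 and rank 7467, below the lowest IDR signal of 62.0. It ranked 9793 in replicate 1 and 8514 in replicate 2. The clec-62 and clec-63 genes, neighbours on chromosome II, shared a pooled call of signal 54.6. The strongest replicate 2 call in their windows ranked 4968, but those of replicate 1 ranked 16023 at clec-62 and 11475 at clec-63. In the same tandem group, but not adjacent to these 2 genes, clec-66 had a call of signal 54.7. These 4 genes were picked after their values were seen.

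Other families of the innate defence, also chosen with earlier results of these data known, were bound to different extents, beside 20.2% of all genes. Galectins (lec), sugar-binding proteins of another fold, were bound at 9 of 12 genes (75%, interval 46.8 to 91.1%), led by lec-9 with a signal of 196. Lysozyme (lys) genes were bound at 5 of 10, led by lys-8, and saposin-like (spp) genes, which encode membrane-acting antimicrobial proteins, at 11 of 31 (35.5%). The fipr genes were bound at 4 of 29, fip at 2 of 7, irg at 2 of 8, the antimicrobial cnc peptides at 1 of 11, ilys at 1 of 6, and abf at 0 of 6 (interval up to 39%) and the thaumatin-like thn genes at 0 of 5 (up to 43.4%). The 10 families together had 35 of 125 bound (28.0%). Other large families stood at 29 of 67 for ugt (43.3%), 24 of 74 for cyp (32.4%), 21 of 156 for col (13.5%) and 9 of 220 for the srh chemoreceptors (4.09%). The clec share stood between those of srh and col, and no test of these differences was run.

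Regulators of defence genes were bound at 19 of 35 (54.3%, interval 38.2 to 69.5%), against 20.2% of all genes. This list was chosen with earlier results of these data known and includes genes of the DBL-1 pathway. Its share is therefore no independent comparison with all genes. They have 3.03 annotated 5' ends on average, and of all genes with more than 1 such end 30.4% were bound. The strongest were nipi-3, a Tribbles-family pseudokinase gene (signal 522), the FOXO gene daf-16 (503), the MAP kinase phosphatase gene vhp-1 (358) and the bZIP genes cebp-1 (356) and zip-2 (335). In the p38 cascade tir-1 (101), nsy-1 (88.0) and the downstream factor atf-7 (171) were bound, while sek-1 and pmk-1 were not. The gene of the intestinal GATA factor ELT-2 was also bound, at a summit 429 bp upstream (167).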

How the data were processed

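The authors deposited peak lists on builds ce10 and ce11, and only the 4 ce11 lists were used. Per the descriptions deposited with them, a replicate's list was made from its alignments and 1 further file, the pooled list from both replicates, and the IDR list from these 3 lists. The deposited peak signal and the deposited −log10 q-value are the caller's own. All IDR peaks share a −log10 q-value of 4.17, so it was not used for ranking. The aligner, the peak caller and the cut-off on IDR were not stated. The deposited offset of each summit gave its position.

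Genes came from Ensembl release 115 (WBcel235, which is ce11), with 29773 distinct 5' ends of transcripts of protein-coding genes. In the RefSeq genome the annotated coding sequences began with ATG in 99.8% of 31853 transcripts. Many annotated 5' ends are trans-splice sites. Summits were paired with 5' ends in Python 3.11.15 (pandas 2.3.3, NumPy 2.4.6, SciPy 1.17.1), and the pairing was tested on simulated data. The rule for named genes took all bound members, those with a summit within 2000 bp, those nearest the window's edge and 22 fixed symbols. Other clec genes are named as members of a tandem group, for a repeated symbol or repeated sequence, or, where stated, after their values were seen. Members and lists were chosen with earlier results of these data known. With 1 group no contrast, fit or p-value was possible. Intervals and limits for 0 use 95% confidence or 3 counts and cover counting error only. Protein sequences were not used here, so the planned protein signatures were not computed.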

Additional observations from a re-analysis of the deposited data

How the results depend on the processing

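The count of 21 bound clec genes (8.75%) and the 20.2% of all genes were recomputed under 11 alternatives. Of these, 5' ends of coding transcripts alone (21 clec genes, 8.75%, and 20.2% of all genes) were chosen after seeing the data. The clec share was below that of all genes under each. A window of 500 bp gave 13 clec genes (5.42%) and 15.4% of all genes, and one of 2000 bp gave 32 (13.3%) and 27.6%. The 3532 IDR peaks of higher signal gave 11 (4.58%) and 11.8%. Upstream summits only gave 17 clec genes (7.08%) and 18.1% of all genes, and the outermost 5' end only 20 (8.33%) and 18.7%. The nearest gene only gave 17 (7.08%) and 16.6%, and peaks with calls of both replicates 19 (7.92%) and 19.4%. Any overlap of the peak with the window gave 22 (9.17%) and 21.1%. The 7065 strongest nuclear calls of 1 replicate were also used in place of the IDR list, leaving out the other. The clec count then ran from 19 to 24 (7.92 to 10%) and the share of all genes from 20 to 20.2%. Replicate 2 alone kept 17 of the 21 genes and added 7, and replicate 1 alone kept 18 and added 1. The genes clec-50, clec-57, clec-72, clec-78, clec-218 and clec-265 were bound under every alternative. With the peaks of higher signal the defence effectors fell to 18 bound genes, ugt to 17, cyp to 12 and col to 7. The srh count was 5 with 500 bp and 15 with 2000 bp. With 25 bp on either side, TGATAA lay at 31.8% of clec summits, against 10.6% of all, and with 100 bp at 72.7%, against 31% (both chosen after seeing the data). The other alternatives run for these lists left their counts within 1.5 times. Counts by chromosome, tandem group and single effector family, distances and ranks were not recomputed. The causes were not tested. No paired analysis was possible because there is 1 group. With peak lists alone, a gene without a peak is not shown to be free of SMA-9.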
